A study of Homo sapiens with 4 samples.

Results

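Lysyl oxidases and transglutaminases are enzymes that tie proteins of the extracellular matrix together by covalent bonds. The 7 genes described here were taken by name from an expression table of HK2 cells. They were the lysyl oxidases LOX, LOXL1, LOXL2, LOXL3 and LOXL4 and the transglutaminases TGM1 and TGM2. These are 7 of the 25609 genes in the table, and all 7 lay among the 16590 genes with a mean of at least 0.5 RPKM (a read count divided by exon length in kilobases and by library size), which were tested. HK2 is a human kidney tubule line immortalised with papillomavirus oncogenes, and its genotype is labelled WT. The TGF-β1 group held 2 libraries of cells given that cytokine at 20 ng/mL for 24 h, and the control group held 2 libraries labelled as controls. Both groups had 24 h without serum and, in the final 20 h, the uridine analogue 4SU at 100 μM. All 4 samples carry the same treatment text, so that the controls lacked only TGF-β1 is a reading of their names. A single cell line was used, so the spread between libraries is not a spread between donors, and the labels do not name separate cultures.

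Lysyl oxidases are secreted amine oxidases that need copper. They turn lysine and hydroxylysine side chains of collagens and elastin into aldehydes, which then condense into the cross-links that stiffen fibres. LOX and LOXL1 are made as proenzymes, and LOX is released by the metalloprotease BMP1, whereas LOXL2, LOXL3 and LOXL4 carry scavenger receptor domains in place of that type of propeptide. Transglutaminases need calcium and join glutamine to lysine. TGM2 is widely expressed and also acts at the cell surface with fibronectin and integrins, while TGM1 is anchored to membranes and is best known for sealing the envelope of skin keratinocytes. Both families are studied in kidney scarring, in which TGF-β1 acts on tubular cells.

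Between 3346290 and 5472436 reads per library could be recovered from the deposited RPKM values. Of 16590 tested genes, 1513 passed an adjusted p of 0.05 by limma with Benjamini-Hochberg adjustment. Of these, 1015 were higher with TGF-β1 and 498 lower. Scaled by the total of recovered reads instead of by the authors' factors, the split was 654 higher and 889 lower, and over all tested genes the median log2 value shifted by -0.15. All 7 genes of a list of known TGF-β responses rose, among them PMEPA1, JUNB and TGFBI. TGFBI, which encodes a secreted matrix protein induced by TGF-β, had 535 and 582 RPKM in the TGF-β1 libraries and 111 and 115 RPKM in the controls. The kidney lineage factor PAX8 was present at 15.5 and 14.7 RPKM with TGF-β1 and 44.8 and 42.2 RPKM in controls, and it was 1 of the 2 genes that fell among 4 tested tubule markers. The brush border gene GGT1 was present at 18.9 and 16.8 RPKM with TGF-β1 and 19.6 and 20.4 RPKM in controls, whereas AQP1, CUBN, SLC34A1 and ANPEP had between 0 and 5 reads in every library. The summed level of the 9 tubule markers analysed was 41.9 and 39.5 RPKM with TGF-β1 and 78.6 and 80.7 RPKM in controls. A list of 5 general epithelial markers summed to 357 and 394 RPKM with TGF-β1 and 298 and 319 RPKM in controls. Of these, 2 rose (KRT8, log2 1.19, and KRT18, 0.43) and 2 fell (KRT19, -1.52, and EPCAM, -0.89). Of 7 fibroblast markers analysed, LUM alone passed the expression filter, and the summed level of the list was 9.11 and 7.17 RPKM with TGF-β1 and 12.6 and 13.3 RPKM in controls. The defining fibroblast genes COL1A2 and COL3A1 had at most 1 read in any library. Scaled by total recovered reads, 3 of the 4 tested tubule markers fell. On that scale 1 epithelial marker rose and 2 fell, and LUM, the 1 tested fibroblast marker, was called lower. These are bulk samples, in which fewer cells of a type and less RNA per cell cannot be told apart.

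With TGF-β1, 3 of the 7 cross-linking genes rose and 0 fell. LOX rose the most, to about the level of LOXL1. TGM2 rose 3.56-fold as a ratio of mean RPKM, and LOXL2, by far the most abundant of the 7, rose 1.32-fold. LOXL1 was higher in both TGF-β1 libraries but missed the threshold, and LOXL3, LOXL4 and TGM1 had overlapping groups. The share of all tested genes called higher was 6.12% and the share called in either direction 9.12%. The median log2 fold change was 0.39 over the 7 genes and 0.03 over all tested genes. The groups did not overlap for 4 of the 7 genes, against 54.1% of all tested genes. With total recovered reads as the scale, 2 of the 7 rose, 0 fell and the median was 0.21.

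**Figure D1:**
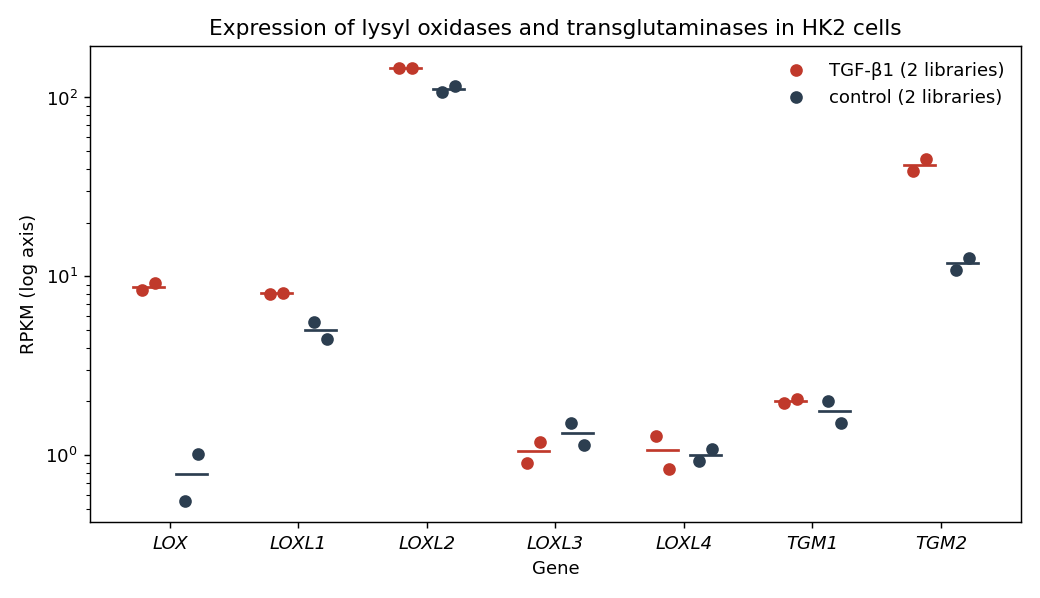
RPKM on a log axis for the 7 genes. Points are single libraries, 2 with TGF-β1 (left of each pair) and 2 controls (right), and bars are group means. The TGF-β1 points of LOX, 8.39 and 9.13 RPKM, lie far above its control points, 0.558 and 1.02 RPKM, while the groups of LOXL3, LOXL4 and TGM1 overlap.

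LOX, the founding member of the family, was among the weakly expressed tested genes in control cells and well above the median gene with TGF-β1. The gene (ENSG00000113083.13) lies on the minus strand of hg38 chromosome 5, from 122063195 to 122078360. It had 8.39 and 9.13 RPKM in the TGF-β1 libraries, on 193 and 238 reads, and 0.558 and 1.02 RPKM in the controls, on 10 and 26 reads. Both TGF-β1 libraries thus lay far above both controls. No difference beyond counting error was detected between the 2 control libraries (exact binomial test on the reads of those libraries, two-sided p = 0.093). On so few reads this test could miss extra spread. By the same exact test, libraries of a group differed beyond counting error for TGM2, with TGF-β1 (p = 5.84e-05) and in controls (p = 0.0351), and for LOXL2 in controls (p = 0.00661). LOX averaged 8.76 ± 0.52 RPKM with TGF-β1 and 0.787 ± 0.32 RPKM in controls (SD, n = 2 each), an 11.1-fold difference. Its log2 fold change on the scale of log2(RPKM + 0.5), which understates changes of weakly expressed genes, was 2.87 (standard error 0.23, 95% confidence interval 2.29 to 3.45, adjusted p = 0.00453, limma). From the summed reads, 431 with TGF-β1 and 36 in controls, the ratio was 10.9, with a 95% interval of 7.77 to 15.8 that covers counting error only. Only 25 of the 16590 tested genes had a larger log2 fold change. By level, LOX moved to the 72.3rd percentile of tested genes in the TGF-β1 group, against the 12.7th percentile in controls.

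The promoters of LOX, LOXL1 and LOXL4 are shown because these 3 genes, all lysyl oxidases, had a large, a small and no detectable difference. Each sequence is the 250 bases before the first listed start in RefSeq (GRCh38.p14), read 5′ to 3′ on the strand of the gene. The gene positions from GENCODE 29 begin further upstream than these starts. By those positions the LOXL1 window lies wholly inside the gene, and the LOX and LOXL4 windows lie partly inside theirs. The LOX window is chr5:122078260-122078509 on the minus strand, the LOXL1 window chr15:73926212-73926461 on the plus strand and the LOXL4 window chr10:98268195-98268444 on the minus strand. Capitals mark matches, on either strand, to any of 5 short words that are spelled out after the sequences.
LOX: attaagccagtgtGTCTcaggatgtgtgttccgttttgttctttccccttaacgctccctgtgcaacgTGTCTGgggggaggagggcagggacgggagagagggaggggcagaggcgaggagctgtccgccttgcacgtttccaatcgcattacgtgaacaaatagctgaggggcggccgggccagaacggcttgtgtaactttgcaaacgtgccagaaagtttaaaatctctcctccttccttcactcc
LOXL1: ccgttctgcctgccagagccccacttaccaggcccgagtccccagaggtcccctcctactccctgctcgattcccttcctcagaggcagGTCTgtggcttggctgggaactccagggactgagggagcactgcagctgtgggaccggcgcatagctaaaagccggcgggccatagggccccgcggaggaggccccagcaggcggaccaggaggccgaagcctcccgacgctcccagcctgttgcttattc
LOXL4: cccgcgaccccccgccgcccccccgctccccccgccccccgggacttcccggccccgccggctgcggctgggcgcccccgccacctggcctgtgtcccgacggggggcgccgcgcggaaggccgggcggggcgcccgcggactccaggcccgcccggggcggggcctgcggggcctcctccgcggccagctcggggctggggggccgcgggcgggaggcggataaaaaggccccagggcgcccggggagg
GTCT is the short element bound by SMAD proteins, the transcription factors activated by TGF-β receptors, and was present in 77.5% of the 35116 promoters of the table. The LOX window held 2 matches to it and the LOXL1 window 1 match. CAGACA, the core of the CAGA boxes that SMADs bind, was present in 13.6% of promoters and had 1 match in the LOX window. Its reverse complement contains GTCT, so this match is also counted there. LOX has 3 listed starts, and the windows of the other two, not printed, held 0 matches to CAGACA, and 1 and 2 matches to GTCT. The LOXL4 window held no match to any of the 5 words and had the highest GC content of the 3, at 86.4%, against 66.8% for LOXL1 and 55.2% for LOX. TGANTCA (AP-1), GGAATG (TEAD factors) and TATAAA occurred in 6.57%, 11.9% and 10.7% of promoters and in none of these 3 windows. LOXL3 also had no detectable difference, and its first listed start, not printed, had 2 matches to GGAATG and 1 to GTCT. A match is a description of letters in this window. Promoters of LOXL2, TGM1 and TGM2 were not analysed here.

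LOXL1, which is known for its role in elastic fibre upkeep, had a difference in the same direction as LOX but much smaller. The gene (ENSG00000129038.15) lies on the plus strand of chromosome 15, from 73925989 to 73952137. It had 7.97 and 8.09 RPKM with TGF-β1, on 120 and 138 reads, and 5.55 and 4.48 RPKM in controls, on 68 and 76 reads. The groups did not overlap, and the ratio of means was 1.60. The log2 fold change of 0.64 had a 95% confidence interval of 0.28 to 1.00 and missed the threshold after adjustment (adjusted p = 0.0584, limma). It passed without control replicate 1 (adjusted p = 0.0495), among genes with a mean of at least 2 RPKM (0.0353) and with limma's voom on the recovered reads (0.00239). In the TGF-β1 libraries LOX was close to LOXL1, at 1.05 and 1.13 times its RPKM, and this small gap was not tested. In the controls LOX had 0.101 and 0.227 times the RPKM of LOXL1.

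LOXL2, which cross-links type IV collagen of basement membranes, supplied most of the lysyl oxidase RNA in both groups. The gene (ENSG00000134013.15) lies on chromosome 8, from 23297189 to 23425328 on the minus strand. It measured 147 RPKM in each TGF-β1 library, on 3480 and 3948 reads, and 107 and 116 RPKM in the controls, on 2077 and 3110 reads. The groups did not overlap. The log2 difference was 0.39 (95% confidence interval 0.23 to 0.56) and passed the threshold (adjusted p = 0.0270, limma). At the 98.2nd percentile with TGF-β1 and the 98.1st in controls, its place among tested genes hardly differed. The call was lost with scaling by total recovered reads (log2 0.21, adjusted p = 0.0698) and with quantile normalisation (log2 0.12, adjusted p = 0.203). It was also lost without TGF-β1 replicate 1 (adjusted p = 0.0869), TGF-β1 replicate 2 (0.0967) or control replicate 1 (0.0742), although the log2 fold change stayed above 0 in all 14 alternatives.

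LOXL3 and LOXL4, paralogues with scavenger receptor domains like LOXL2, were weakly expressed in both groups. LOXL3 had 0.910 and 1.19 RPKM with TGF-β1, on 16 and 24 reads, and 1.52 and 1.15 RPKM in controls, on 22 and 23 reads. On the log2 scale the difference was -0.24 (95% confidence interval -0.88 to 0.40, adjusted p = 0.619, limma). LOXL4 had 1.28 and 0.843 RPKM with TGF-β1, on 19 and 14 reads, and 0.928 and 1.08 RPKM in controls, on 11 and 18 reads. Here it was 0.04 (95% confidence interval -0.63 to 0.72, adjusted p = 0.936, limma), and its sign changed with scaling by total recovered reads (-0.07). The groups overlapped for both genes. At this depth the intervals still allow a rise of 1.32-fold for LOXL3 and 1.65-fold for LOXL4, so a modest difference was not detectable. The lower bound for LOX, 4.88-fold on the same scale, lies above both.

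Within each library the 5 lysyl oxidases can be set side by side, because RPKM is per length. Their summed level was 165 and 166 RPKM with TGF-β1 and 116 and 124 RPKM in controls. LOXL2 made up 88.8% and 88.4% of this sum with TGF-β1 and 92.6% and 93.8% in controls. The share of LOX was 5.08% and 5.49% with TGF-β1 and 0.482% and 0.822% in controls, a difference of 4.63 percentage points. LOXL1 held 4.82% and 4.87% with TGF-β1 and 4.79% and 3.62% in controls, and its share difference of 0.639 points was 0.0528 points without control replicate 2 and 1.23 points without control replicate 1. The mean share of LOXL2 differed by -4.59 points. LOXL3 and LOXL4 together held under 3% in every library. Shares of a sum depend on each other, and they are given as a description that was not tested.

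**Figure D2:**
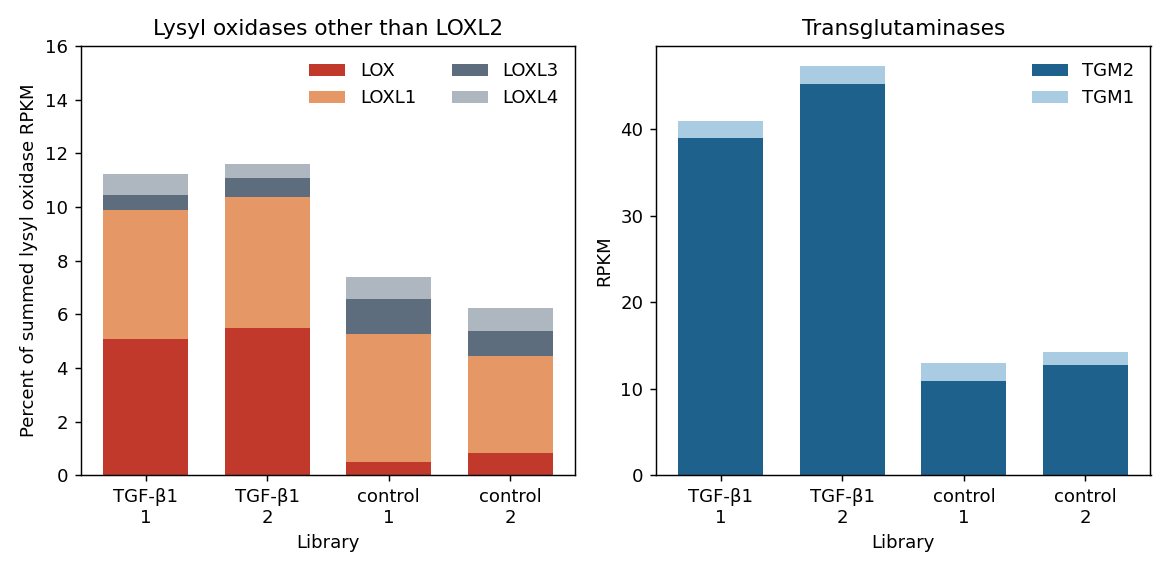
Left, the lysyl oxidases other than LOXL2 as stacked bars in percent of the summed RPKM of all 5, by library. Right, stacked RPKM of TGM2 and TGM1. The LOX segment is 5.08% and 5.49% in the TGF-β1 libraries and below 1% in the controls, and the TGM2 bars reach 39.0 and 45.2 RPKM with TGF-β1 against 10.9 and 12.7 RPKM in controls.

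TGM2, tissue transglutaminase, was the second most abundant of the 7 genes in both groups and rose with TGF-β1. The gene (ENSG00000198959.11) lies on the minus strand of chromosome 20, from 38127387 to 38166578. It had 39.0 and 45.2 RPKM in the TGF-β1 libraries, on 1301 and 1709 reads, and 10.9 and 12.7 RPKM in the controls, on 297 and 481 reads. The lower TGF-β1 library was still well above the higher control. TGM2 averaged 42.1 ± 4.4 RPKM with TGF-β1 and 11.8 ± 1.3 RPKM in controls (SD, n = 2 each). On the log2 scale the difference was 1.79 (standard error 0.12, 95% confidence interval 1.49 to 2.09, adjusted p = 0.00316, limma), and 144 tested genes had a larger value. The percentile of its level was 93.5 with TGF-β1 and 78.5 in controls.

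TGM1, the keratinocyte transglutaminase (ENSG00000092295.11, chromosome 14, 24249114 to 24264432, minus strand), did not differ detectably. It had 1.96 and 2.08 RPKM with TGF-β1, on 30 and 36 reads, and 2.01 and 1.51 RPKM in controls, on 25 and 26 reads, and the groups overlapped. The log2 difference was 0.16 (95% confidence interval -0.38 to 0.71, adjusted p = 0.698, limma). TGM2 had 19.8 and 21.8 times the RPKM of TGM1 in the TGF-β1 libraries, and 5.42 and 8.45 times in the controls. TGM3, the hair follicle and skin enzyme, had 2 reads in each TGF-β1 library and 0 in both controls. TGM5, another epidermal enzyme, had 1 and 1 reads with TGF-β1 and 3 and 6 in controls. TGM4, the prostate enzyme, had 2 and 0 reads with TGF-β1 and 0 in both controls. None of these 3 reached the expression filter.

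The order of the levels in the TGF-β1 group was LOXL2, TGM2, LOX, LOXL1, TGM1, LOXL4 and LOXL3, and the ranges of LOXL4 and LOXL3 overlapped. In controls the order was LOXL2, TGM2, LOXL1, TGM1, LOXL3, LOXL4 and LOX. There the ranges of TGM1 and LOXL3 overlapped, as did those of LOXL4 and LOX. LOX was thus the third most abundant of the 7 with TGF-β1, by a small and untested margin over LOXL1, and the seventh in controls. Of the other 6 genes LOXL3 and LOXL4 alone changed places.

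**Figure D3:**
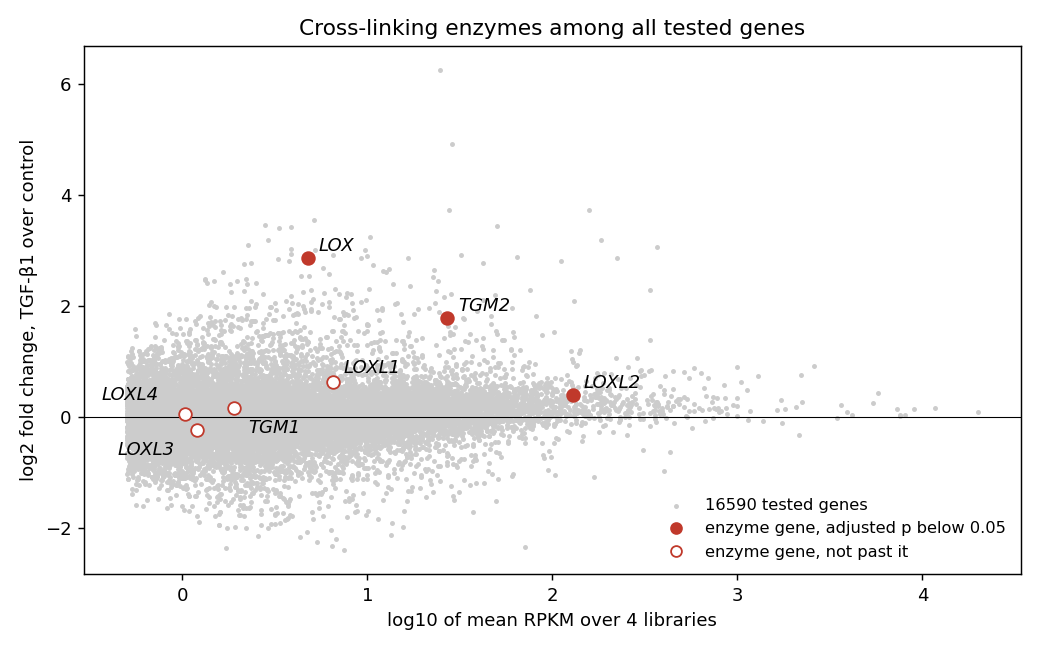
Log2 fold change, TGF-β1 over control, against the log10 of mean RPKM for the 16590 tested genes (grey) and the 7 enzyme genes (red, filled where adjusted p was below 0.05). LOX at 2.87 and TGM2 at 1.79 lie above most genes of their level, LOXL2 at 0.39 is among the most abundant genes, and LOXL3, LOXL4 and TGM1 lie near 0.

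Of 17 genes for the maturation and copper supply of lysyl oxidases, 8 passed the expression filter, 3 rose and 0 fell, with a median log2 fold change of 0.49 (2 and 0.32 with scaling by total recovered reads). With limma's voom on recovered reads 5 genes of the list rose. BMP1, the protease that cleaves the LOX propeptide and also procollagen, had 44.8 and 46.8 RPKM with TGF-β1 and 25.8 and 28.0 RPKM in controls (log2 0.76, adjusted p = 0.00821, limma). Fibronectin (FN1), a scaffold on which LOX is processed, had 463 and 551 RPKM with TGF-β1 and 287 and 320 RPKM in controls (log2 0.74). THBS1, a matricellular glycoprotein, had 19.4 and 23.9 RPKM with TGF-β1 and 13.5 and 14.6 RPKM in controls, at the edge of the threshold (adjusted p = 0.0496, limma). Its call was lost in 9 alternatives, among them without TGF-β1 replicate 2 (adjusted p = 0.163), control replicate 1 (0.111) or control replicate 2 (0.0723), and that of FN1 without control replicate 1 (0.0555). Without control replicate 1 a single gene of this list rose. Of the copper genes, the importer SLC31A1 was at 7.06 and 6.03 RPKM with TGF-β1 and 6.30 and 7.03 RPKM in controls. The copper chaperone ATOX1 was at 12.0 and 12.7 RPKM with TGF-β1 and 9.94 and 8.71 RPKM in controls, and did not pass (adjusted p = 0.0992, limma). ATP7A, the pump that loads copper into secreted enzymes, had 9 and 18 reads with TGF-β1 and 7 and 19 in controls, below the filter.

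The substrates were listed as fibrillar collagens, type IV collagens and elastic fibre proteins. Of 23 genes, 10 were tested, 6 rose and 0 fell, with a median log2 fold change of 1.00 (6 and 0.82 with scaling by total recovered reads). COL1A1, the main chain of type I collagen, had 21.4 and 24.3 RPKM with TGF-β1 and 5.21 and 5.17 RPKM in controls (log2 2.04). COL5A1, which sets the width of fibrils, had 11.6 and 12.0 RPKM with TGF-β1 and 2.2 and 2.1 RPKM in controls (log2 2.22). COL4A2, a basement membrane chain, had 377 and 393 RPKM with TGF-β1 and 210 and 220 RPKM in controls (log2 0.84). MFAP2, a microfibril protein, had 38.6 and 39.4 RPKM with TGF-β1 and 16.6 and 17.6 RPKM in controls (log2 1.17). The other genes that rose, named after their values were seen, were COL27A1 (log2 2.18) and COL4A1 (log2 1.43). The partner chains of COL1A1 and COL5A1 were almost absent: COL1A2 had 0 reads in all 4 libraries, and COL5A2 had 5 and 5 reads with TGF-β1 and 1 and 3 in controls. Elastin (ELN), the classic substrate of LOX and LOXL1, had 1 and 1 reads with TGF-β1 and 5 and 4 in controls.

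Another list held 10 genes for lysine modification of collagen (PLOD and COLGALT genes) and for other oxidases and peroxidases (AOC and PXDN genes). Not all of these form cross-links. Of the 10 genes, 7 were tested and 0 passed limma at an adjusted p of 0.05, while 4 had an unadjusted p below 0.05. The smallest p belonged to PLOD1, a lysyl hydroxylase, with 41.1 and 43.9 RPKM in the TGF-β1 libraries and 32.1 and 34.6 RPKM in the controls (log2 0.34, adjusted p = 0.0577). With limma's voom on recovered reads 4 genes of this list rose, and among genes of at least 2 RPKM 1 gene rose. The median log2 fold change was 0.34 with the authors' scaling and 0.17 with scaling by total recovered reads.

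Partners and substrates of TGM2 moved in both directions. Of 16 genes, 15 were tested, 5 rose and 2 fell, with a median log2 fold change of 0.19. ADGRG1, an adhesion receptor that binds TGM2, had 198 and 193 RPKM with TGF-β1 and 25.9 and 29 RPKM in controls, a 7.10-fold difference of means (log2 2.81, adjusted p = 0.000484, limma). ITGA5, the α subunit of the main fibronectin receptor, had 25.5 and 28.4 RPKM with TGF-β1 and 12.5 and 12.3 RPKM in controls (log2 1.09). LRP5, a Wnt co-receptor, had 2.21 and 2.19 RPKM with TGF-β1 and 4.71 and 5.16 RPKM in controls (log2 -1.01, adjusted p = 0.0225, limma), a call that was lost whichever library was left out (adjusted p 0.0599 to 0.0904). FN1 rose as given above, and PDIA3 (log2 0.37), ITGB5 (0.42) and SDC2 (-0.34), named after their values were seen, complete the 7 calls. Under scaling by total recovered reads the list had 3 rises, 3 falls and a median of 0.01. Leaving out a library gave 2 or 3 rises without TGF-β1 replicate 1, TGF-β1 replicate 2 or control replicate 1, and at most 1 fall without any of the 4 libraries.

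Of 9 cornified envelope genes analysed, substrates of TGM1 in skin, 4 were tested, 3 rose and 0 fell, with a median log2 fold change of 0.65 (2 and 0.47 with scaling by total recovered reads). Desmoplakin (DSP), which anchors keratins at desmosomes, had 62.1 and 75.0 RPKM with TGF-β1 and 15.3 and 15.4 RPKM in controls (log2 2.12, adjusted p = 0.00184, limma). The calcium-binding proteins S100A11 (log2 0.80) and S100A10 (log2 0.50, adjusted p = 0.0484, limma) also rose, and the call of S100A10 was lost without TGF-β1 replicate 1 (adjusted p = 0.0557), TGF-β1 replicate 2 (0.133) or control replicate 1 (0.0979). PPL and PI3, named after their values were seen, lay below the filter and were not tested. PPL had 2 and 5 reads with TGF-β1 and 15 and 18 in controls, and PI3 had 1 and 1 with TGF-β1 and 0 in both controls. Involucrin (IVL) and filaggrin (FLG), which define the keratinocyte envelope, had 0 reads in all 4 libraries. Of 3 keratinocyte markers analysed, KRT5 was likewise at 0 reads and TP63 had 2 and 6 reads with TGF-β1 and 0 in both controls. The third, the keratin gene KRT10, was present at 28.8 and 26.9 RPKM with TGF-β1 and 30.1 and 29.3 RPKM in controls, and was not called (adjusted p = 0.507, limma).

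**Figure D4:**
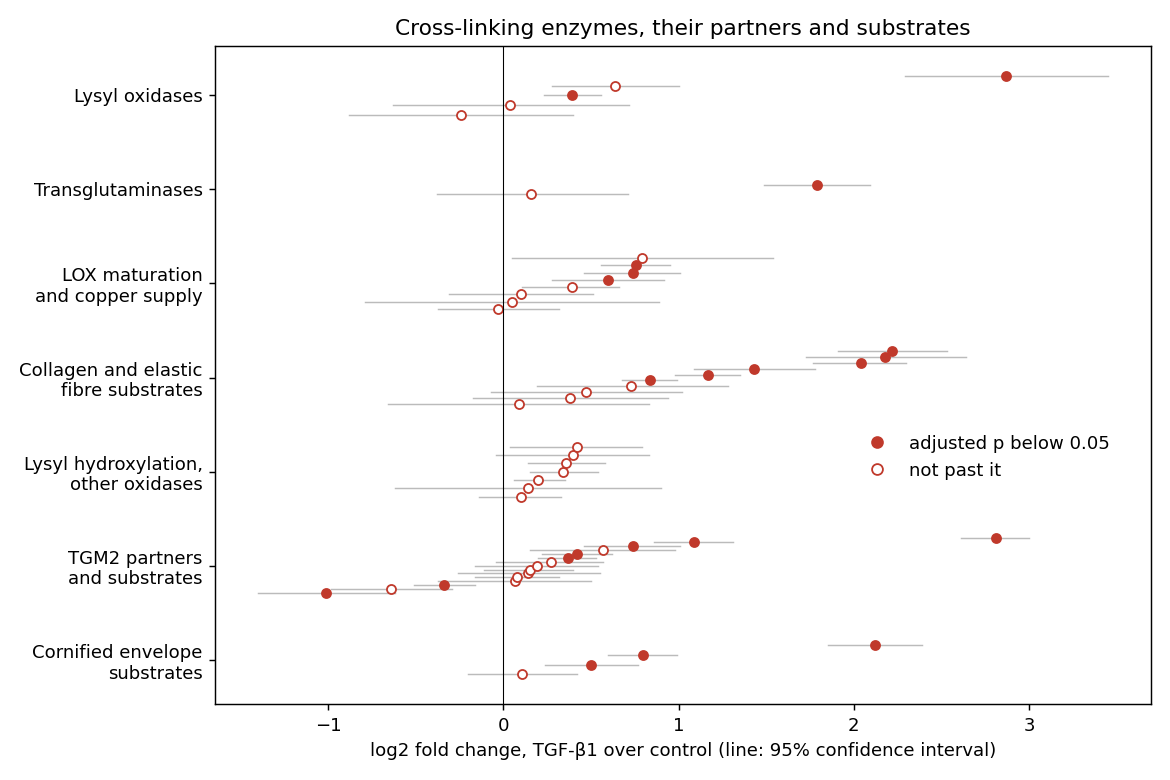
Log2 fold change with its 95% confidence interval for each tested gene of the 2 enzyme families and of 5 lists of partners and substrates, TGF-β1 over control. Filled points had an adjusted p below 0.05. In the collagen and elastic fibre list 6 of 10 genes rose, and TGM2 partners hold both rises and falls.

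Likeness of pattern was measured as the distance between profiles of log2(RPKM + 0.5), less the control mean, over the 4 libraries, among 50 tested genes of these lists. The gene most like LOX was ADGRG1, at a distance of 0.288, with log2 fold changes of 2.87 for LOX and 2.81 for ADGRG1. The closeness of these values depends on the pseudocount of 0.5. With a pseudocount of 0.1 they were 3.37 for LOX and 2.83 for ADGRG1, and the log2 fold change of PMEPA1, 3.20, was closer to that of LOX. Distances were not computed with that pseudocount. The ratio of mean RPKM was 11.1 for LOX and 7.1 for ADGRG1. TGM2 was nearest to LTBP2, a microfibril protein of the latent TGF-β binding protein family (distance 0.334, log2 1.88). LOXL2 was nearest to the integrin subunit ITGB5 (0.0453), LOXL1 to COL11A2 (0.315), LOXL3 to SDC2 (0.356), LOXL4 to SDC4 (0.172) and TGM1 to the envelope protein EVPL (0.204).

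None of the 50-base words of LOX, LOXL1, LOXL3, LOXL4 and TGM1 transcripts occurred in another gene of GENCODE 29, against 1.42% for LOXL2 and 0.224% for TGM2, and no word was shared between members. The library kit keeps strand per the labels, but no source used here gives the strand setting of the counting. Without it, reads in exons shared with a gene on the opposite strand cannot be told apart. SRFBP1 shares 2.49% of the LOX exon bases and had 3.75 and 3.52 RPKM with TGF-β1 and 4.6 and 4.48 RPKM in controls. LOXL1-AS1 shares 9.21% of those of LOXL1 and had 16 and 11 reads with TGF-β1 and 13 and 26 in controls. RPRD1B shares 4.90% of those of TGM2 and had 19.9 and 20.1 RPKM with TGF-β1 and 23.0 and 20.4 RPKM in controls. None of these 3 partners was called, and each was lower on average with TGF-β1. Partners of LOXL2 and of LOXL4 were higher on average with TGF-β1, and none of them was called. ENTPD4, on the same strand as LOXL2, shares 2.1% of its exon bases and had 117 and 146 reads with TGF-β1 and 89 and 127 in controls (log2 0.13). AC090197.1, opposite LOXL2, shares 3.12% and had 5 and 5 reads with TGF-β1 and 3 and 4 in controls, below the filter. AL139241.1, opposite LOXL4, shares 4.16% and had 7 and 6 reads with TGF-β1 and 3 and 3 in controls (log2 0.56). LOXL3 shares 14.3% of its exon bases with HTRA2, on the opposite strand. HTRA2 had 238 and 248 reads (19.1 and 17.6 RPKM) with TGF-β1 and 194 and 265 reads (19.1 and 18.8 RPKM) in controls. These levels are far above the 0.910 to 1.52 RPKM of LOXL3. Whether HTRA2 reads enter the LOXL3 values was not tested. DOK1, also on the opposite strand, shares 4.95% and had 111 and 149 reads with TGF-β1 and 111 and 157 in controls.

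**Figure D5:**
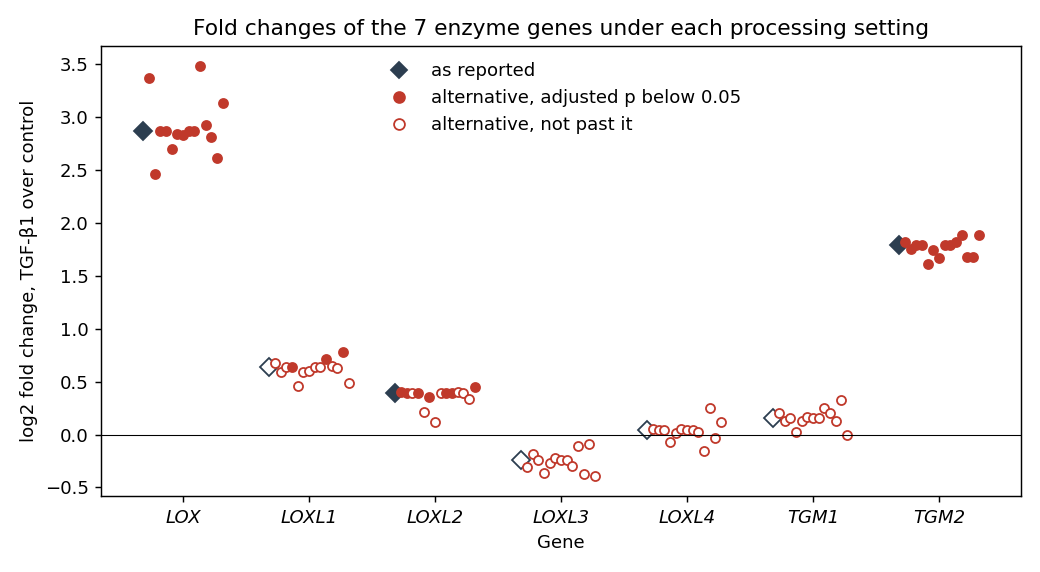
Log2 fold change of each of the 7 genes as reported (diamond) and under 14 alternative settings (circles; 13 for LOXL3, LOXL4 and TGM1, which average under 2 RPKM and drop out of the stricter filter), filled where the adjusted p was below 0.05. LOX (2.46 to 3.48) and TGM2 (1.61 to 1.89) stay filled throughout, LOXL2 (0.12 to 0.45) is filled in 7 of 14 and LOXL1 (0.46 to 0.78) in 3 of 14.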

How the data were processed

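The authors deposited 1 table of RPKM values for 4 libraries, matched to samples by title. Per the submitters' processing notes, hg38, STAR 2.7.1a, bcl2fastq 2.20.0.422 and DESeq2 were used, in roles that are not given. Symbols were found for 25312 identifiers. Positions and exon lengths came from GENCODE 29, and multiplied by length the RPKM values were whole reads plus 0.5 (tolerance 0.01) for 100% of genes of the same version. Recovered reads describe depth and feed alternatives. Genes averaging 0.5 RPKM or more were tested with limma 3.58.1 (R 4.3.3) on log2(RPKM + 0.5), with a variance trend and Benjamini-Hochberg adjustment over all 16590. The procedure was also run on simulated data with changes larger than those of LOXL1 and LOXL2. That run cannot speak to differences as small as theirs. P values measure no more than the spread between libraries of a group, which may be technical. For each gene limma takes this spread from 2 libraries per group and pulls it toward a trend over all tested genes. The members and lists were chosen with earlier results of these data known. From each list the text names up to 4 called genes with the smallest p, or else the 1 gene with the smallest p. Promoters came from RefSeq (GRCh38.p14). Counting intervals used SciPy 1.17.1. A gene of the TGF-β response list that this rule names is not reported here.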

Additional observations from a re-analysis of the deposited data

How the results depend on the processing

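LOX (log2 2.46 to 3.48) and TGM2 (1.61 to 1.89) kept their direction and passed the threshold under all 14 alternatives, which were other pseudocounts (0.1 and 1), filters, scalings, no variance trend, limma's voom on recovered reads, a replicate block and each library left out. The number of the 7 genes called was 2 to 4. LOXL2 passed in 7 of 14, and missed without the filter (adjusted p = 0.0504) and without the variance trend (0.172) beside the settings given with its values. The log2 fold change of LOXL4, never called, was -0.07 with scaling by total recovered reads and -0.16 to 0.25 when a library was left out (-0.16 without TGF-β1 replicate 1, and -0.03 without control replicate 1). Over all genes, 1513 calls became 977 without the filter, 424 without the variance trend, 3356 with voom, and 574 to 1138 when a library was left out (TGF-β1 replicate 2 for 574, TGF-β1 replicate 1 for 739, control replicate 1 for 999). The cause was not tested. The labels share replicate numbers without saying that they mark a pairing: deviations of same-numbered libraries correlated at 0.0261 over 16590 genes, and the replicate block gave 1344 calls and kept LOX, LOXL2 and TGM2 as the called genes of the 7. Without the variance trend 0 maturation genes and 1 envelope gene rose, against 3 each as reported. Depth limits LOXL3, LOXL4 and TGM1, on 11 to 36 reads per library.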
